A study of Homo sapiens with 22 samples.

Results

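The peaks described here are candidate binding sites of the RNA-binding protein QKI5 that lay away from active promoters. Their gene symbols were those of long non-coding RNA (lncRNA) genes. The peaks were taken from 2 lists of crosslinking immunoprecipitation (CLIP) peaks, 1 from QKI5-knockdown cells and 1 from control cells, by the gene symbol that the authors gave each peak. A symbol counted as lncRNA when it had the form of a LINC name, a genomic clone name (RP followed by digits, CTA, CTB, CTC or CTD), an accession name (AC, AL or AP followed by digits), or ended in -AS1, -AS2, -IT1 or -OT. Peaks on a peak of H3K4me3, the histone mark of active promoters, of the same condition were left out. This left 72 of 669 peaks in the knockdown list and 744 of 7337 in the control list, 816 of 8006 in all. Members made up 10.8% of the knockdown list (95% exact interval 8.52 to 13.4%) and 10.1% of the control list (9.46 to 10.9%), a difference of 0.622 percentage points (Newcombe 95% interval -1.62 to 3.28).

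The cells were THP-1, an established human monocytic leukaemia line. Knockdown cells carried a lentivirus with a short hairpin against QKI5, and control cells carried a lentivirus with a control hairpin, although the series text calls the control cells untreated. The same conditions were profiled by chromatin immunoprecipitation (ChIP) of H3K4me3 and of RNA polymerase II (Pol II). Each of the 6 deposited peak lists pools 2 replicates, so the spread between replicates is unknown, no difference between conditions could be tested, and the depth of each library is unknown.

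QKI is a regulator of splicing, and QKI5 is its form that resides in the nucleus. In CLIP, ultraviolet light links a protein to the RNA it touches, and the RNA recovered with the protein is sequenced. Many lncRNAs stay in the nucleus, and some act on chromatin or on transcription near the place where they are made. A CLIP read may come from the spliced RNA, from an intron of the precursor, or from a small RNA gene that lies inside the lncRNA locus.

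To show what the gene starts look like, the start windows are printed for the 3 genes that had at least 5 control peaks and a RefSeq start window 5' of a peak. Each runs 5' to 3' from 250 bases before to 50 bases after the RefSeq start (build GRCh38.p14), with every CG in capitals, because CG-rich starts commonly carry H3K4me3. PCGF3-AS1 is the present name of RP11-440L14.1, on chr4:781800-782099 (minus strand). SOX2-OT, which overlaps the stem cell factor gene SOX2, starts at chr3:181056430-181056729 (plus strand). WARS2-AS1, the present name of RP11-418J17.1, starts at chr1:119140146-119140445 (plus strand).
PCGF3-AS1: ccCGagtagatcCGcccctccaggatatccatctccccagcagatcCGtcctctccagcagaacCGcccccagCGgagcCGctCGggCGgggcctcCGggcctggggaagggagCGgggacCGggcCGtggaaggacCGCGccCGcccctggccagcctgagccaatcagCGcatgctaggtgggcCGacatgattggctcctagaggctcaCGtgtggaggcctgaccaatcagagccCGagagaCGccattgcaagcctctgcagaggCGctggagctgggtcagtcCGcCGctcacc
SOX2-OT: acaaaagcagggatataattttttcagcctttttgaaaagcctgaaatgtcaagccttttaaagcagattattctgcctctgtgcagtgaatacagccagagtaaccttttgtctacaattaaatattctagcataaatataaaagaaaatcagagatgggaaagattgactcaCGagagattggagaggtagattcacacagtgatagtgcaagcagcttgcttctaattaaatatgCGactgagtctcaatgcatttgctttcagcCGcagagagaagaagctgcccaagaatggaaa
WARS2-AS1: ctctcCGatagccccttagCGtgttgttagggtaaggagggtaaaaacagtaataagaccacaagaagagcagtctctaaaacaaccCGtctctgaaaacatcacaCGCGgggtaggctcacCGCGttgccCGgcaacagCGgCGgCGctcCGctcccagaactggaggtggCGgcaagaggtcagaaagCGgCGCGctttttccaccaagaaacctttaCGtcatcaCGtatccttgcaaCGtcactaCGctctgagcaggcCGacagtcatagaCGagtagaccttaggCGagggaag
The PCGF3-AS1 and WARS2-AS1 windows held 23 CG each and the SOX2-OT window 3, against a median of 14 over 35116 RefSeq windows of the same length. At least 23 CG were found in 35.8% of those windows and at least 3 in 81.8%. PCGF3-AS1 and WARS2-AS1 carried H3K4me3 and Pol II peaks at their starts in knockdown and in control cells, and the SOX2-OT start carried neither mark in either condition.

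The label lncRNA was checked against RefSeq gene types. Of the 50 genes with a member peak in the knockdown list, 24 were RefSeq lncRNA genes, 1 was a transcribed pseudogene and 25 had no match. Of the 349 genes in the control list, 155 were lncRNA genes, 7 were protein-coding genes, 4 were pseudogenes, 4 were transcribed pseudogenes and 179 had no match. The protein-coding ones include LINC00854, now CCDC200, LINC01420, now NBDY, and AC104389.28, now the olfactory receptor gene OR51B5. With a RefSeq type of lncRNA required, members made up 5.23% of the knockdown and 5.15% of the control list. Clone names accounted for 41 knockdown and 409 control peaks, LINC names for 7 knockdown and 132 control peaks, and accession names for 9 knockdown and 89 control peaks. Antisense names accounted for 9 knockdown and 101 control peaks, intronic names for 1 knockdown and 7 control peaks, and the overlapping name, SOX2-OT, for 5 knockdown and 6 control peaks. Some 16 (22.2%) of the knockdown peaks and 203 (27.3%) of the control peaks lay within the span of a protein-coding gene on either strand. Of the 72 knockdown peaks 6 lay on a small RNA gene or pseudogene, as did 11 of the 744 control peaks.

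Most member peaks rested on few reads. A knockdown member had a median of 7 reads (6 to 195) and a control member a median of 8 (7 to 4057), against medians of 7 for the 484 other knockdown peaks off H3K4me3 and 9 for the 5636 other control peaks off it. The median log2 enrichment over background was 6.53 for knockdown members (4.36 to 10.59) and 6.09 for control members (3.21 to 9.68), with 6.12 for the other knockdown peaks and 5.92 for the other control peaks. These peak values are the authors', and the scale differs between the lists. The linear enrichment equalled the read number divided by a background number and multiplied by 30.9 in the knockdown list and 15.2 in the control list, as inferred from the values. The background number was 1 for 31 (43.1%) of the knockdown members and 333 (44.8%) of the control members, so the enrichment of these peaks follows from their reads alone. It was 1 for 21.7% of the other knockdown peaks and 38.9% of the other control peaks, and its part in the difference of the medians was not tested. Adjoining peaks of a gene were often 1 site cut into blocks, and merging them left 52 knockdown sites of median width 91.5 bp and 529 control sites of median width 77 bp.

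The sites found in both conditions were few, but member peaks, chosen by symbol, were among them more often than the other peaks were. Sharing was defined as a same-strand overlap of 1 bp or more with the other list. This held for 17.8% of all knockdown peaks off H3K4me3 and 1.58% of all such control peaks. Among members it held for 26 of 72 knockdown peaks (36.1%, 25.1 to 48.3%), against 15.1% of the other knockdown peaks, a difference of 21.0 points (10.3 to 32.9). For control members it held for 29 of 744 peaks (3.90%, 2.63 to 5.55%), against 1.28% of the other control peaks, a difference of 2.62 points (1.40 to 4.29). Counted as merged sites the differences were smaller, with 12 of 52 knockdown sites shared (23.1%) against 11.99%, a difference of 11.1 points (1.07 to 24.5). Likewise 13 of 529 control sites were shared (2.46%) against 1.24%, a difference of 1.22 points (0.123 to 2.94). Among peaks with a -log10 p of at least 10 the shares were 85.7% of knockdown members (67.3 to 96.0%) against 40.6% of the other knockdown peaks, and 19.3% of control members (13.0 to 26.9%) against 5.35% of the other control peaks. With a RefSeq type of lncRNA required, 10 of 35 knockdown members were shared (28.6%, 14.6 to 46.3%) and 10 of 378 control members (2.65%, 1.28 to 4.81%). In each list 5 of those 10 lay in SOX2-OT. These intervals reach down to the shares of the other peaks, so the excess is not shown for RefSeq lncRNA genes alone. All intervals cover counting error only, since reads may be copies of 1 molecule and peaks of 1 gene are not independent.

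The 13 shared lncRNA sites were mostly narrow, and most held many reads in both lists. Many reads did not always go with a high enrichment over background. SOX2-OT had 195 reads in knockdown and 4057 in control cells at the tallest block of its site, which spans 181231735 to 181231843 on chromosome 3, plus strand (GRCh38.p5), with the same ends in both lists. It lies on RNU6-4P, a pseudogene of the spliceosomal U6 RNA. AC037445.1 had 192 reads in knockdown and 179 in control cells, at 63276965 to 63276984 on chromosome 17, minus strand. SOX2-OT is the site where the control list held far more reads, and AC037445.1 the only one of the 13 where the knockdown list held more. Log2 enrichment at the tallest block was 4.56 in knockdown and 7.15 in control cells at SOX2-OT. At AC037445.1 it was 8.73 in knockdown and 7.41 in control cells. The medians of all members were 6.53 in knockdown and 6.09 in control cells.

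RP11-61O11.1 had 76 reads in knockdown and 124 in control cells, at 95784664 to 95784720 on chromosome 15, plus strand. NR2F2-AS1, the antisense neighbour of the nuclear receptor gene NR2F2, had 45 reads in knockdown and 63 in control cells, at 96282921 to 96282939 on the minus strand of the same chromosome. AL021918.1 had 47 reads in knockdown and 103 in control cells, at 27545721 to 27545772 on chromosome 6, plus strand. The AL021918.1 site lies on TRS-TGA2-1, a transfer RNA gene, so that its reads cannot be assigned to the lncRNA. AC007682.1 had 46 reads in knockdown and 71 in control cells, at 51807442 to 51807462 on chromosome 2, plus strand. From its nearest block the closest H3K4me3 peak was 1959426 bp away in knockdown and 1959173 bp away in control cells. Log2 enrichment was below the member medians in both lists at RP11-61O11.1 (4.93 in knockdown, 4.21 in control), NR2F2-AS1 (5.98 in knockdown, 5.51 in control) and AL021918.1 (4.51 in knockdown, 4.19 in control). It was above them at AC007682.1 (8.15 in knockdown, 7.49 in control).

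Of the remaining shared sites, RP11-731N10.1 had 50 reads in knockdown and 61 in control cells, CTD-2525I3.6 had 34 in knockdown and 54 in control cells, and RP11-703H8.9 had 31 in knockdown and 46 in control cells. CTC-255N20.1, now STK32A-AS1, had 17 reads in knockdown and 24 in control cells, on chromosome 5 at 147232878 to 147232899, minus strand. RP11-731N10.1, CTD-2525I3.6, RP11-703H8.9 and CTC-255N20.1 also led the knockdown members by log2 enrichment, with 10.59, 10.03, 9.90 and 9.03. CTD-2525I3.6, RP11-703H8.9, CTC-255N20.1 and RP11-731N10.1 led the control members with 9.68, 9.45, 8.51 and 8.27. The other shared sites were low, with 8 knockdown and 19 control reads at RP11-124N3.3 and 7 knockdown and 12 control reads at KCNQ5-IT1. The last site had 7 knockdown and 9 control reads, and is a member through the control list alone, since it was named GLTSCR1 in the knockdown list and CTD-2571L23.8 in the control list.

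**Figure D1:**
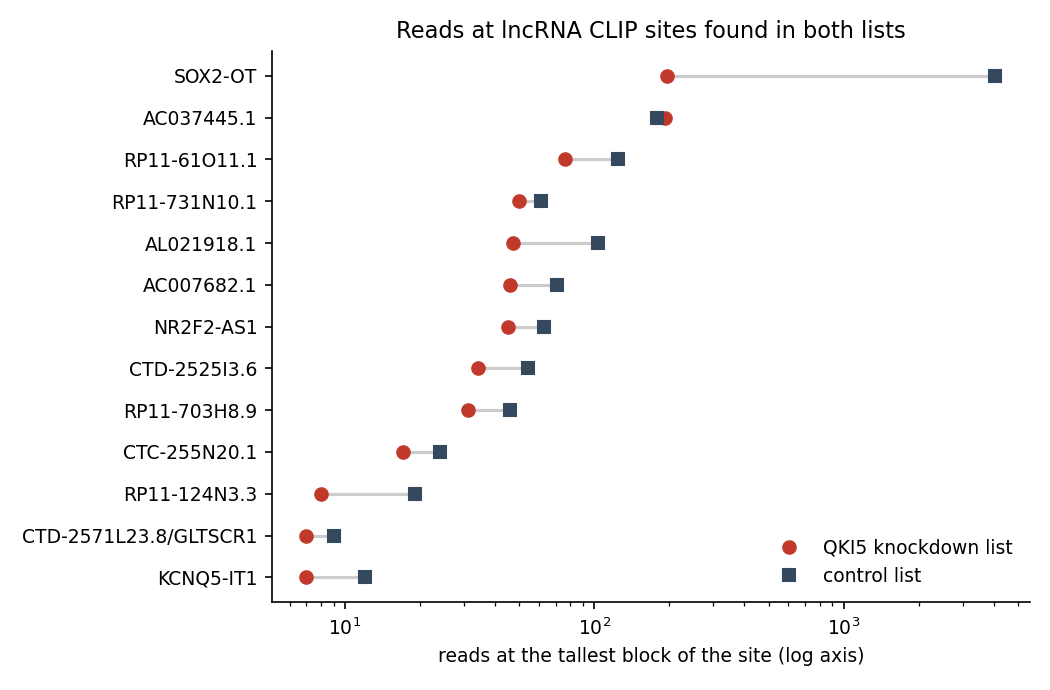
Reads at the tallest block of the 13 lncRNA sites found in both lists, on a log axis, with 1 row per site, circles for QKI5 knockdown and squares for control. The knockdown value lies left of the control value at every site except AC037445.1, and the gap is widest at SOX2-OT, with 195 knockdown and 4057 control reads.

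Of these sites, 7 were at most 24 bp wide, 9 had both ends within 2 bp of each other in the 2 lists and 5 had identical ends. Over all members, 10 of 52 merged knockdown sites were that narrow, 7 of them shared, and 44 of 529 control sites, 7 of them shared. The other peaks off H3K4me3 held narrow shared sites too, with 38 narrow knockdown sites, 20 of them shared, and 287 narrow control sites, 19 of them shared. Shared sites had a median of 45.5 reads in knockdown and 61 in control cells, while unshared sites had medians of 7 in knockdown and 9 in control cells. Shared sites of the other peaks had medians of 16 reads in knockdown and 23.5 in control cells. The 40 unshared knockdown sites reached at most 13 reads, and the 516 unshared control sites at most 99, at LINC00854. Width and exact ends were looked at after the values were seen.

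SOX2-OT differed from the other 12 shared lncRNA sites in how its reads divided between the lists. Because library totals are unknown, the knockdown reads are given as a percent of the knockdown and control reads together, which can be compared between sites but not read as a change. For SOX2-OT this was 4.59% (exact 95% interval 3.98 to 5.26%), while the other 12 lncRNA sites lay between 29.6 and 51.8%, with a median of 39.8%. The 67 shared sites outside the members, peaks on H3K4me3 included, had a median of 40.5% and ranged from 4.64 to 89.8%. The lowest of the 67, PRMT8, had 11 knockdown and 226 control reads, 4.64% (2.34 to 8.15%), which cannot be told from the share of SOX2-OT. Within the knockdown list the SOX2-OT reads were 0.348 times those of the other 12 lncRNA sites summed, 195 against 560. Within the control list they were 5.30 times that sum, 4057 against 765.

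**Figure D2:**
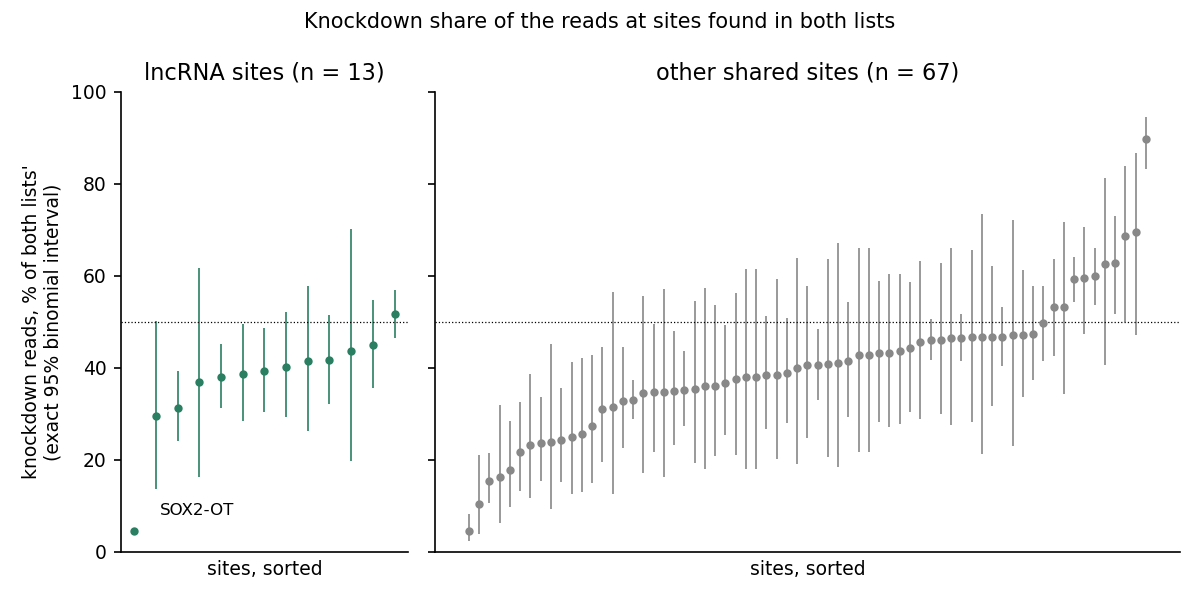
Knockdown reads as a percent of knockdown plus control reads at each shared site, sorted, with exact 95% binomial intervals, for the 13 lncRNA sites (left) and the 67 other shared sites (right); the dotted line marks equal read numbers. SOX2-OT sits at 4.59%, and the remaining lncRNA sites sit between 29.6 and 51.8%, inside the range of the other sites.

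Peaks whose own symbol is a U6 gene or pseudogene, which are not members, are given beside this. The knockdown list of 669 peaks held 1 such peak, at RNU6-490P with 11 reads. The control list of 7337 peaks held 17 such peaks at 11 loci, with 6 to 105 reads. With lists of such different length, these counts cannot be read as a loss of U6 peaks in knockdown cells. RNU6-490P itself had 20 reads in the control list. Reads of near-identical U6 copies may be split or placed at 1 copy by the alignment, so the origin of the SOX2-OT reads cannot be told apart from other U6 loci, and its part in the result was not tested.

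Genes were found in both lists more often than sites were, but a shared site usually places its gene in both lists by itself. Of the 50 knockdown genes and 349 control genes 21 were in both lists, 42.0% of the knockdown genes (exact 95% interval 28.2 to 56.8%) and 6.02% of the control genes (3.76 to 9.05%). Of the other genes with a CLIP peak off H3K4me3, 189 were in both lists, 53.4% of 354 knockdown genes (48.0 to 58.7%) and 7.31% of 2587 control genes (6.33 to 8.38%), intervals that overlap those of the lncRNA genes. An overlapping pair of peaks was found in 12 of the 21, and the other 9 had their peaks at different places. ZFPM2-AS1, antisense to the GATA cofactor gene ZFPM2, had at most 13 reads in knockdown and 7 in control cells. SLC25A25-AS1 had at most 12 in knockdown and 8 in control cells, and LINC02882 (RP11-81H3.2) at most 11 in knockdown and 9 in control cells. AP001347.6, CTD-2542L18.1, EPHA1-AS1, LINC01169, EPIC1 (RP11-191L9.4) and RP5-972B16.2 had at most 6 to 8 reads in knockdown and 8 to 17 in control cells. The lowest numbers among all members were 6 reads in knockdown and 7 in control cells, and the absence of a low peak from one list does not show the absence of binding.

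Several lncRNA genes carried many separate peaks in control cells. A single site was found in 48 of the 50 knockdown genes (96.0%) and in 266 of the 349 control genes (76.2%). At least 5 peaks were found in 2 knockdown genes, SOX2-OT and RP11-61O11.1, and in 22 control genes. The 10 genes with the most peaks held 27 (37.5%) of the knockdown peaks and 115 (15.5%) of the control peaks. In the control list, members held 529 sites in 349 genes. The other control peaks off H3K4me3 held 3864 sites in 2587 genes, a similar number of sites per gene. Many peaks in a gene are therefore not shown to be a feature of lncRNA genes. The shares of genes with a single site or at least 5 peaks were not compared with other genes.

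LINC01606 had no knockdown peak and 22 control peaks, which merged into 16 sites across 29000 bp of chromosome 8 and held 7 to 31 reads each. PCGF3-AS1 had no knockdown peak and 15 control peaks, in 11 sites across 11838 bp, with 8 to 18 reads each. RP11-328J2.1, now LINC02476, had none in knockdown and 13 in control cells, spread over 183848 bp of chromosome 7 with 9 to 24 reads. LINC01029 had none in knockdown and 12 in control cells, over 22105 bp of chromosome 18 with 9 to 24 reads. In these 4 genes no single site dominated, in contrast to the shared sites above.

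EPIC1, known as a lncRNA that binds the MYC protein, had 1 knockdown peak with 6 reads and 12 control peaks with 7 to 17 reads over 193414 bp of chromosome 22. RP11-124N3.3 had 1 knockdown peak with 8 reads and 11 control peaks with 9 to 19 reads. RP11-6N13.1 had none in knockdown and 9 in control cells, and LINC00534, RP11-146I2.1 and RP11-648K4.2 had none in knockdown and 7 each in control cells. The knockdown list is the shorter by far, so that a gene with control peaks only was the usual case: limited to the 669 peaks of lowest p, the control list named 38 lncRNA genes, against 50 in the knockdown list.

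**Figure D3:**
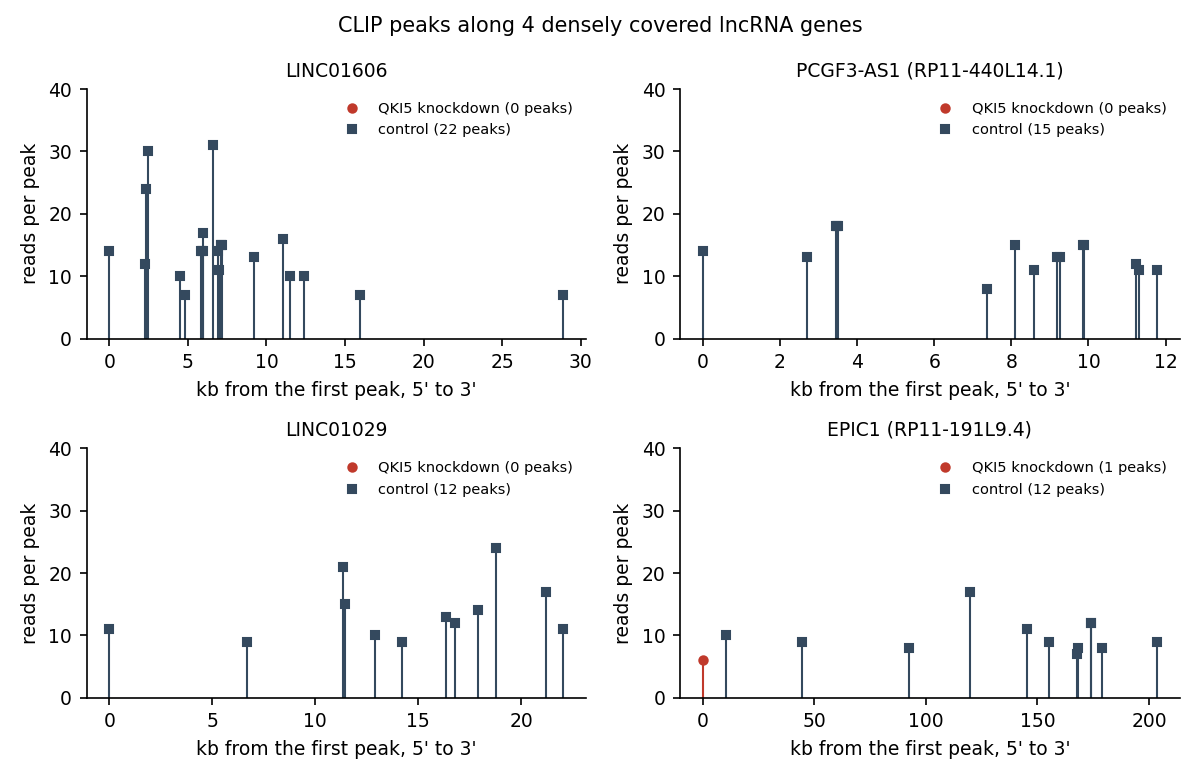
Reads per CLIP peak (vertical axis) by distance in kb from the first peak in the 5' to 3' direction, for 4 of the 5 lncRNA genes with at least 12 control peaks, with circles for knockdown and squares for control. LINC01606, PCGF3-AS1 and LINC01029 have no knockdown peak and EPIC1 has 1 with 6 reads, while control peaks of 7 to 31 reads are spread along each gene.

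Member peaks lay farther from H3K4me3 peaks than other CLIP peaks did. The median distance was 47850 bp in knockdown and 38094 bp in control members, against 15483 bp for the other knockdown peaks off H3K4me3 and 21165 bp for the other control peaks. More than 100 kb away were 28 of 72 knockdown members (38.9%), against 8.84% of the other knockdown peaks, a difference of 30.1 points (19.2 to 41.8). Among control members 260 of 742 (35.0%) were that far, against 11.2%, a difference of 23.8 points (20.4 to 27.4), leaving out peaks on sequences without any H3K4me3 peak. Counted by gene, with the nearest peak of each, the shares were 28.0% of lncRNA genes against 8.70% of other genes in knockdown, and 23.0% against 6.77% in control cells. LINC01029, 492062 bp from the nearest H3K4me3 peak, and LINC01606, 187873 bp away, are examples among the densely covered genes. Gene length, which bears on the distance to a start, was not compared.

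**Figure D4:**
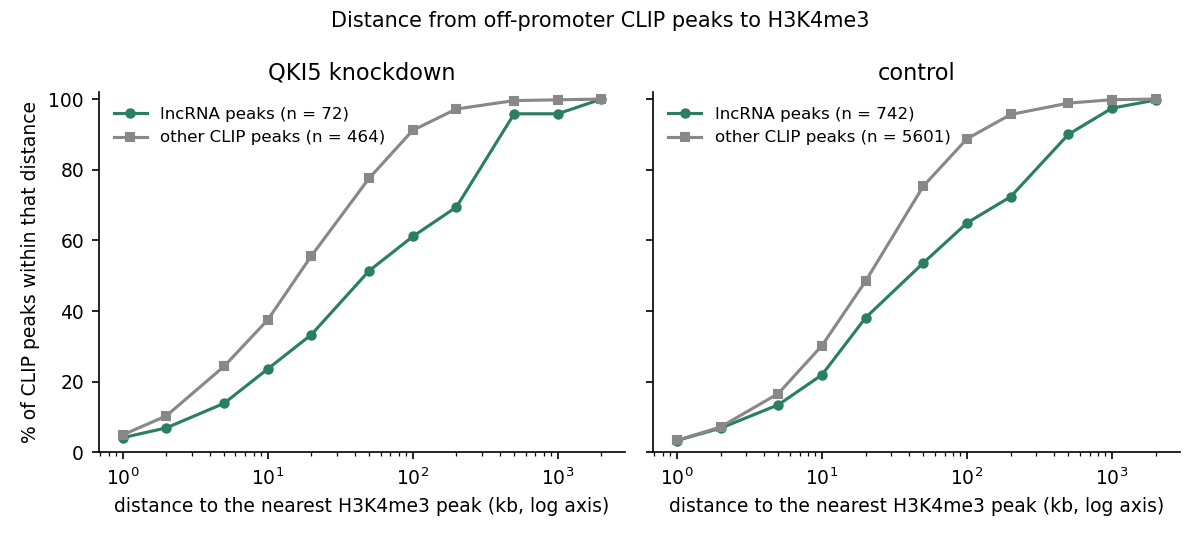
Percent of CLIP peaks (vertical axis) that lie within a given distance of an H3K4me3 peak of the same condition (kb, log axis), for knockdown (left) and control (right); circles are lncRNA peaks and squares the other CLIP peaks off H3K4me3. At 100 kb the lncRNA curves reach 61.1% in knockdown and 65.0% in control cells, below 91.2% in knockdown and 88.8% in control cells for the other peaks.

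The overlap of member peaks with Pol II was low and did not differ from the other peaks beyond its interval, although members lay farther from Pol II. The median distance to a Pol II peak was 84713 bp for knockdown members, against 11176.5 bp for the other knockdown peaks. It was 48278 bp for control members, against 16265 bp for the other control peaks. Peaks on sequences without any Pol II peak were left out. Of all peaks off H3K4me3, 6.47% in knockdown and 5.05% in control cells lay on a Pol II peak of the same condition. Of the members 3 of 72 knockdown peaks did (4.17%, 0.868 to 11.7%), against 6.82% of the other peaks, a difference of -2.65 points (-6.43 to 4.98). In control cells 37 of 744 did (4.97%, 3.53 to 6.79%), against 5.06%, a difference of -0.0837 points (-1.56 to 1.80). The knockdown peaks belonged to 2 genes, RP11-122K13.7 with 6 reads and HEXIM2-AS1 (AC002117.1), antisense to the transcription elongation inhibitor gene HEXIM2, with 7 reads at each of 2 peaks. The control peaks belonged to 16 genes, and 15 of the 37 lay in PCGF3-AS1.

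PCGF3-AS1 is antisense to PCGF3, which encodes a Polycomb group protein. All 15 of its control CLIP peaks lay on Pol II. Pol II peaks carry no strand, so they cannot be assigned to PCGF3-AS1 rather than to PCGF3. In knockdown cells a single Pol II peak ran from 760284 to 782873 on chromosome 4, 22590 bp, although no CLIP peak was listed there. In control cells a Pol II peak of 11100 bp held 10 of the CLIP peaks and another, of 12158 bp, held 5, and the 2 peaks were separated by a short gap. H3K4me3 covered 4128 bp in knockdown and 5303 bp in control cells, at the start of the gene. Counted within 1 kb of Pol II, the share of control members was 9.14%, against 11.4% of the other control peaks off H3K4me3. Without PCGF3-AS1 22 of 729 control members (3.02%) lay on Pol II, an alternative chosen after the data were seen.

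Where a RefSeq start window could be matched, the starts of member genes were marked more often than those of other lncRNA genes. That the CLIP peaks lay off H3K4me3 was set by the rule for members. A RefSeq start window was found for 116 of the 378 member genes, for 109 of them a window lay 5' of a CLIP peak, and 104 of these were of RefSeq type lncRNA. The start carried H3K4me3 at 68 of the 104 in knockdown (65.4%), against 25.3% of 11356 other RefSeq lncRNA genes, a difference of 40.04 points (30.5 to 48.5). In control cells it did at 69 (66.3%), against 25.2%, a difference of 41.2 points (31.6 to 49.6). Pol II was present at 63 starts in knockdown (60.6%), against 21.0%, and at 60 in control cells (57.7%), against 20.02%. Over all 27326 genes with a window, H3K4me3 was present at 51.1% in knockdown and 50.8% in control cells, and Pol II at 44.7% in knockdown and 43.1% in control cells. Of the 14 genes with a peak in the knockdown list, the knockdown marks were present at 6 (42.9%) for H3K4me3 and 5 (35.7%) for Pol II. No interval was computed for these 14, so their shares are not shown to exceed those of the other lncRNA genes. Expression of the other lncRNA genes was not measured here, and its part in this difference was not tested. The other genes have no member peak, so they were not held to a window 5' of one. Names ending in -AS1 or -DT, after a neighbouring gene, were frequent among the 104, and their share among the others was not compared. ChIP peaks carry no strand, so a mark at such a start cannot be assigned to the lncRNA gene rather than to its neighbour.

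The marks at these starts were nearly the same in both conditions. H3K4me3 was present in both at 68 genes and in control cells alone at 1, SCIRT (RP5-1120P11.1), whose single CLIP peak, with 7 reads, was in the knockdown list. Pol II was present in both at 59 genes, in knockdown alone at 4 and in control cells alone at 1. Starts with control H3K4me3 held a median of 25 CG and those without it a median of 4. The same split was seen in the other RefSeq lncRNA genes, with 26 and 3, and over all genes with a window, with 28 and 4. MEF2C-AS1, antisense to the myeloid and neuronal transcription factor gene MEF2C, and LINC-PINT, a p53-regulated lncRNA, carried both marks in both conditions. Among the 14 genes in the knockdown list, HEXIM2-AS1, MMP25-AS1, LINC02609 and SRP14-DT (SRP14-AS1) did too.

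**Figure D5:**
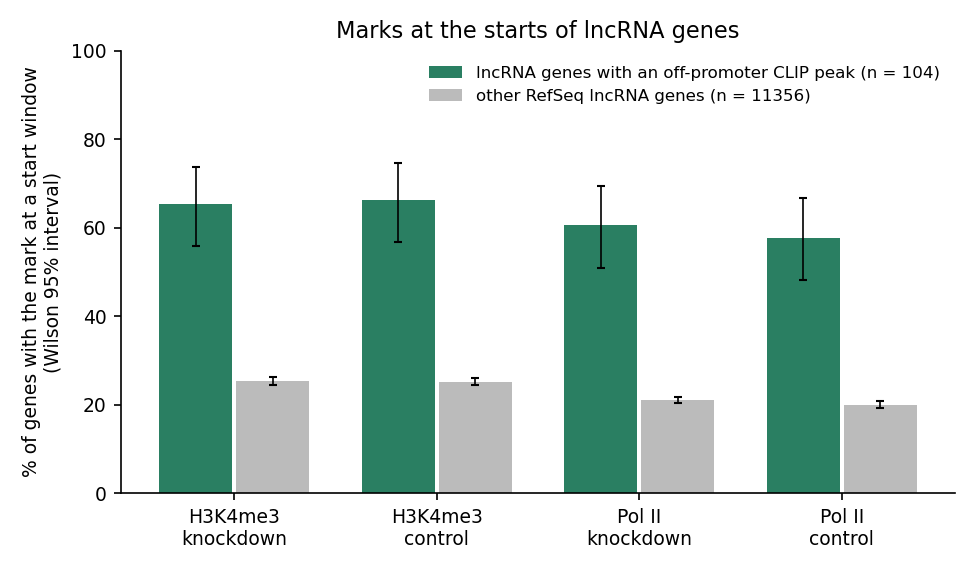
Percent of lncRNA genes with an H3K4me3 or Pol II peak at a RefSeq start window, in knockdown and control cells, for 104 genes with an off-promoter CLIP peak (dark bars) and 11356 other lncRNA genes (light bars), with Wilson 95% intervals. The member genes stand at 65.4% in knockdown and 66.3% in control cells for H3K4me3 and at 60.6% in knockdown and 57.7% in control cells for Pol II, and the other genes between 20.02 and 25.3%.

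Of 31 symbols of lncRNAs known from myeloid cells, none had a QKI5 peak in knockdown and 2 did in control cells. Among all 18330 RefSeq lncRNA genes, matched by symbol, 0.185% had a peak in knockdown and 1.12% in control cells, so the myeloid counts are not low beside this background. The 2 were LINC-PINT, with 3 member peaks of at most 9 reads, and HOTAIRM1, a lncRNA of the HOXA cluster known from myeloid differentiation, with 2 peaks on H3K4me3 of at most 9 reads. Of 38 abundant or well known lncRNA symbols, most of them outside the symbol rule, 5 had a peak in knockdown and 11 in control cells. These counts include SOX2-OT in both conditions, and LINC00854 and LINC01606 in control cells. The list was chosen with earlier results of these data known, so its counts cannot be read against the share over all RefSeq lncRNA genes. NEAT1, the architectural RNA of paraspeckles, had 5 knockdown peaks of at most 150 reads and 2 control peaks of at most 100 reads. GAS5, a host gene of small nucleolar RNAs, had 6 knockdown peaks of at most 34 reads, each on H3K4me3, and none in control cells. Conversely, DANCR had none in knockdown and 6 in control cells of at most 142 reads, each on H3K4me3. TUG1 had none in knockdown and 5 in control cells of at most 19 reads, and KCNQ1OT1, the imprinted antisense RNA, none in knockdown and 4 in control cells of at most 11 reads. PVT1, next to MYC, had 1 knockdown peak with 7 reads and 3 control peaks of at most 11 reads.

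Some members are named for a neighbouring or overlapping gene. Of the 9 knockdown genes named for such a partner, none had a knockdown peak in the partner gene, and 1.75% of all RefSeq protein-coding genes had one. At so low a background no partner peak among 9 genes is no result. Of the 60 such control genes 22 had a control peak in the partner, and 13.2% of all protein-coding genes had one. The partners were reached through a lncRNA gene that itself had a CLIP peak. Their expression and length were not compared with those of all protein-coding genes, and the part of either in this difference was not tested. The most partner peaks were found in AGAP1 with 12, against 1 in AGAP1-IT1, which has an intronic name. The corepressor gene CTBP1 had 11, against 1 in CTBP1-AS2, and TTC28 had 10, against 2 in TTC28-AS1. No member peak overlapped a CLIP peak on the opposite strand. These partner counts include peaks on H3K4me3, and the control list is the longer, so the 2 conditions cannot be set against each other here.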

How the data were processed

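QKI5 CLIP, H3K4me3 ChIP and Pol II ChIP of THP-1 cells gave 22 samples, and the 6 pooled peak lists, which combine both replicates per the series text, were used. HOMER and the build GRCh38.p5 are listed, per the submitters' processing notes, with no role stated. How reads were aligned, peaks called and inputs applied is not given in the sources used here.

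The deposited ChIP lists hold position and a constant score, which was not used. The deposited CLIP lists have no header. Their values were read as the authors' −log10 p and the authors' log2 enrichment per peak, with reads, gene identifier and symbol, and were used to describe and rank peaks within a list. Reads were set side by side between lists at shared sites only, with library totals unknown.

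Members were found by symbol and by no overlap (1 bp) with H3K4me3. Adjoining peaks of a gene and strand were merged into sites. Shares carry exact Clopper-Pearson intervals and differences Newcombe intervals, at 95%, with no test between conditions. Figures also use Wilson intervals. RefSeq tables of GRCh38.p14 gave names, gene types and start windows. The overlap, merging and interval code was checked on simulated data. Python 3.11.15, pandas 2.3.3, numpy 2.4.6, scipy 1.17.1 and matplotlib 3.10.9 were used.

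Genes were named by rule: per list the 10 genes with most peaks, the 10 peaks with most reads and the 10 with the highest enrichment, genes and sites in both lists, and members of the lncRNA lists. Genes named for their position on Pol II, for their start marks or for their partner peaks were chosen after their values were seen. The members and lists were chosen with earlier results of these data known. Sequences under the peaks, including the QKI response element, were not analysed here. Alternatives tried were stricter p and enrichment, other overlap rules, merged sites, a RefSeq type requirement, a shortened control list and peaks on H3K4me3 kept.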

Additional observations from a re-analysis of the deposited data

How the results depend on the processing

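Of 78 recomputed values, 55 stayed within their interval (or within 1.5 times, for counts), and 23 moved. With a -log10 p of at least 10, the share of members shared with the other list was 85.7% in knockdown and 19.3% in control cells, none (0.0%) of the knockdown members lay on Pol II, the genes numbered 14 in knockdown and 65 in control cells with 10 in both, and the median log2 enrichment was 5.76 in knockdown and 5.80 in control cells. With peaks on H3K4me3 kept, members made up 13.6% of the knockdown and 11.7% of the control list, while Pol II overlapped 18.7% of knockdown members and 12.6% of control members. With a RefSeq type of lncRNA required, members made up 5.23% of the knockdown and 5.15% of the control list, with 24 knockdown and 155 control genes and 10 in both. Merging adjoining peaks lowered the shared share to 23.1% in knockdown and 2.46% in control cells, and requiring 50% overlap lowered it to 2.55% in control cells. With the control list limited to the length of the knockdown list, 38 control genes were left. Within 1 kb of Pol II lay 9.14% of control members, and without RP11-440L14.1 3.02% lay on it, an alternative chosen after the data were seen. Leaving out peaks on small RNA genes, also added after the data were seen, kept both shared shares within their intervals. No paired analysis was possible because each list pools both replicates, and for the same reason no replicate could be left out. Depth is unknown, and members had medians of 7 knockdown and 8 control reads, so a peak absent from one list may be below detection.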
